A study of Drosophila melanogaster with 4 samples.

Results

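The regions described here are clusters of H3K9me1 along the left arm of the second chromosome (2L) of Drosophila melanogaster. H3K9me1 is histone H3 that carries a single methyl group on lysine 9. Members are the clusters of the combined list that start in the interior of the arm, an interval of 20.01 Mb that leaves out the terminal 1 Mb and the 2 Mb next to the centromere. There are 1683 of them, 82.3% of the 2044 combined clusters on the arm and 12.8% of the 13114 in the whole list. The same interval holds 621 of the 5480 clusters of replicate 1 and 722 of the 6062 of replicate 2. Position alone decided membership, and the rule used no width, score or replicate support. The rule was set with earlier results of these data known.

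The series holds 4 samples of whole embryos of the wild-type strain Oregon-R aged 14 to 16 h: 2 ChIP samples, made with a lot of the anti-H3K9me1 antibody that the labels call new, and 2 inputs. All of them come from flies kept in population cages, and chromatin was fixed with 1.8% formaldehyde. Whole embryos mix many tissues, so a weak mark in many cells and a strong mark in few cannot be told apart. The labels do not say whether the replicates came from separate collections, and their spread may be technical.

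Lysine 9 of histone H3 can be mono-, di- or trimethylated, in flies by enzymes such as Su(var)3-9, Eggless and G9a. The more highly methylated forms recruit heterochromatin protein 1 and are the classical marks of silent chromatin around centromeres. The monomethylated form is a substrate for those further steps. Most of 2L outside the centromere-proximal part is euchromatin, where genes are dense and heterochromatin protein 1 is sparse. The question here is where, within that euchromatic arm, the authors' calls lie and how far both replicates share them.

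Clusters on 2L were narrow, weakly enriched and scattered. They covered 6.66% of the interval in replicate 1 and 8.08% in replicate 2, a mean of 7.37% ± 1.00 (SD, n = 2), at 31.03 and 36.1 clusters per Mb. Replicate 2 covered 1.21 times the bases of replicate 1. The median width was 1854 bp in replicate 1 and 1832.5 bp in replicate 2, and the quartiles of width were 1518 and 2390 bp in the first and 1501 and 2423 bp in the second. The narrowest cluster had 1302 bp in replicate 1 and 1304 bp in replicate 2, and the widest had 8303 bp and 14247 bp. Wide clusters were therefore rare: 13 of 621 and 30 of 722 reached 5000 bp. Those few took 6.14% and 12.5% of the clustered bases.

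The deposited score of each cluster is the authors' own value, and its scale is not stated. For 100.0% of the interval's clusters in replicate 1, 99.03% in replicate 2 and 92.9% in the combined list, 2 raised to the score was a ratio of whole numbers times a constant of the list (0.982, 0.978 and 0.980), at a relative tolerance of 1e-11 and a denominator of at most 500. After random rescaling by up to 1%, 0% of the values did so. Scores are accordingly read as log2 ratios, and a fold below is 2 raised to the score. On this reading the median score was 0.71 in replicate 1 and 0.67 in replicate 2, or 1.64-fold and 1.59-fold (mean 1.61-fold ± 0.04, SD, n = 2). The 5th and 95th percentiles of the score were 0.54 and 0.91 in replicate 1 and 0.49 and 0.90 in replicate 2. Enrichment of 2-fold or more, a score of at least 1, was reached by 12 clusters of replicate 1 and 8 of replicate 2. Wider clusters tended to score higher, with Spearman's rho of 0.52 over 621 clusters and 0.62 over 722. Both measures of a cluster come from the same reads, so these coefficients are descriptions.

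Spacing was uneven. The median uncovered gap between neighbouring clusters was 12708 bp in replicate 1 and 11986 bp in replicate 2, whereas the mean gap was 29983 bp and 25441 bp. The SD of the gaps was 1.63 and 1.35 times their mean. Close neighbours and long voids occurred side by side: 19.2% of the gaps in replicate 1 and 15.8% in replicate 2 were under 2000 bp, and 43 and 42 gaps exceeded 100 kb. Gaps over 50 kb took up 61.7% of the interval in replicate 1 and 52.8% in replicate 2. When clusters at most 5 kb apart were joined into chains, 297 of 621 clusters in replicate 1 and 377 of 722 in replicate 2 stood alone, and 26.4% and 23.1% belonged to chains of at least 3. The chain with the most members in replicate 1 had 13 clusters within 49700 bp, at 2L:4480524-4530223. That of replicate 2 had 6 clusters within 20685 bp, at 2L:20200580-20221264. The stretch of the first chain met 6 clusters of replicate 2, and that of the second met 1 cluster of replicate 1. In the combined list the median gap was 4765 bp and the longest chain held 20 clusters, at 2L:1616280-1678769.

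**Figure D1:**
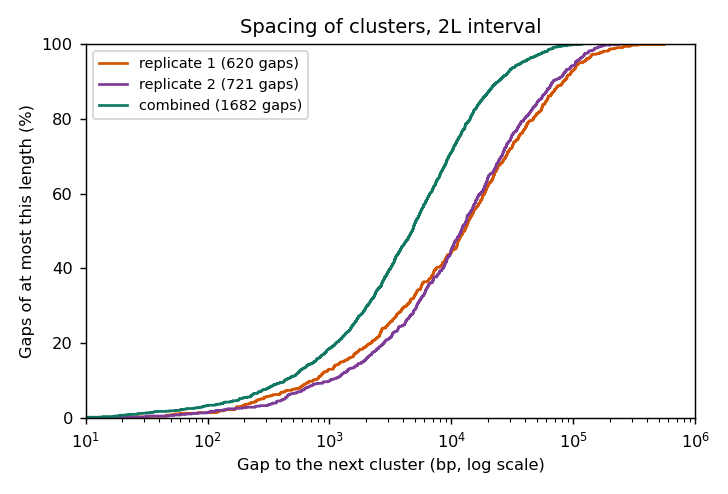
Cumulative share of gaps (vertical axis, %) of at most the length on the horizontal axis (bp, log scale), for neighbouring clusters of the 2L interval in replicate 1 (orange, 620 gaps), replicate 2 (purple, 721 gaps) and the combined list (green, 1682 gaps). The replicates run close together, with medians of 12708 and 11986 bp, and the combined list lies to the left at 4765 bp.

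The replicates shared a core of regions on 2L. Bases covered in both came to 0.827 Mb, or 4.13% of the interval. Replicate 1 had 62.05% of its covered bases in common with replicate 2, which had 51.2%, and the Jaccard index (bases in both divided by bases in either) was 0.390. A cluster of replicate 1 touched one of replicate 2 by at least 1 bp in 415 of 621 cases (66.8%, against 66.5% over the whole series). In the other direction 396 of 722 did (54.8%, against 57.6%). Agreement on 2L was thus close to that of the series. A stricter rule, reciprocal overlap of 50%, was met by 52.01% and 44.7% respectively.

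Sharing rose with width in each replicate. Under 1500 bp, 42.4% had a partner in replicate 1 and 35.0% in replicate 2. From 2000 to 2999 bp the shares were 81.9% and 68.3%, from 3000 to 4999 bp 97.1% and 91.6%, and of those of 5000 bp or more all 13 and all 30 did. A rule of 1 shared bp favours wide clusters by construction. By score, the share in replicate 1 went from 59.0% in the lowest quartile of scores to 78.1% in the highest. In replicate 2 it went from 42.3% to 77.3%. Clusters without a partner were narrower, with medians of 1567 bp and 1606.5 bp against 2039 bp and 2128 bp for those with one. Their median scores were 0.69 and 0.64 against 0.73 and 0.70. Taken within each replicate, the differences were 0.03 and 0.06 (mean 0.05 ± 0.02, SD, n = 2). Of the unpartnered clusters of replicate 1, 44 of 206 lay within 2000 bp of a cluster of the other replicate. For replicate 2 it was 39 of 326. More than 10 kb away lay 72 and 154. No share over the whole series stands beside these counts, so they are descriptions.

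Where clusters matched one to one, their positions lay close together and their scores were moderately alike. There were 326 such pairs, which took in 52.5% and 45.2% of the 2 lists. Their centres were a median of 258.5 bp apart. Over the 326 pairs Pearson's r was 0.72 and Spearman's rho 0.55 for width, and r was 0.55 and rho 0.45 for score. Replicate 1 scored higher in 188 of the pairs (57.7%). Over all 326 pairs the median difference in score, replicate 1 minus replicate 2, was 0.03. Pairs are regions of the same 2 libraries and no independent replicates, so no p-value is given.

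Support for the combined clusters was split. Both replicates touched 361 of the 1683 (21.4%, against 23.8% in the whole combined list), replicate 1 alone 181, replicate 2 alone 303, and neither 838 (49.8%, against 47.2%). The combined list was made from the same samples, so its overlap with them is no independent evidence. Over 3.77 Mb, it covered 18.9% of the interval, 2.56 times the mean of the replicates, and 45.5% of its bases lay in no replicate cluster. Clusters touched by both replicates were wide, with a median of 3481 bp and none under 1662 bp, and had a median score of 0.60. Those touched by neither had a median of 1343 bp and a score of 0.46. Clusters touched by 1 replicate alone resembled the latter in score (0.47 for each replicate) and lay between in width (1976 and 1960 bp). The score of the combined list lies below that of the single lists, and scores are compared here within a list. A combined cluster often joined several calls: 61 held at least 2 clusters of replicate 1 and 49 at least 2 of replicate 2.

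**Figure D2:**
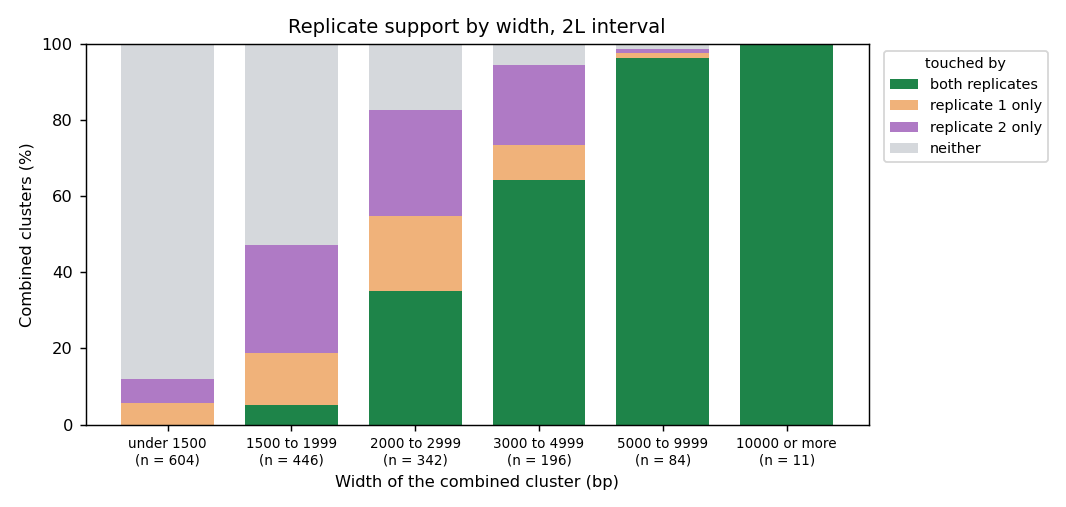
Share of combined clusters of the 2L interval (vertical axis, %) touched by both replicates (green), replicate 1 only (orange), replicate 2 only (purple) or neither (grey), in 6 width classes (horizontal axis, bp, with the number of clusters). Support by both goes from 0% under 1500 bp to 35.1% from 2000 to 2999 bp and 96.4% from 5000 to 9999 bp, and neither replicate touches 88.1% of the narrowest class.

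Support differed with width and score together. Among combined clusters of 2000 bp or more, both replicates touched 8.82% (3 of 34) in the lowest score quartile, 17.0% (17 of 100) in the second, 32.6% (57 of 175) in the third and 80.6% (261 of 324) in the highest. Among clusters under 2000 bp the same shares were 2.84%, 1.87%, 2.45% and 0%, the last of 97 clusters. A high score thus went with support among wide clusters and not among narrow ones, but width also differed between the quartiles. From the lowest to the highest quartile, median widths were 2646.5, 2544, 2548 and 3478 bp among the wide clusters. Among the narrow ones they were 1515, 1437, 1210 and 1113 bp. The split at 2000 bp therefore does not separate score from width. These classes were not counted over the whole combined list, so the shares describe 2L only. None of the 413 combined clusters narrower than 1302 bp, the narrowest replicate cluster, was touched by both, and 376 of them were touched by neither. The score itself did not run one way with width: its median was 0.46 under 1500 bp, 0.44 from 1500 to 1999 bp, 0.52 from 2000 to 2999 bp and 0.68 from 5000 to 9999 bp.

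The highest scores of the combined list show this split. Of the 10 highest-scoring members, 6 were between 1001 and 1042 bp wide and touched by neither replicate. All 6 were narrower than any replicate cluster of the interval (1302 bp or more). On the interiors of 2L, 3L, 3R, 2R and X alike, the narrowest combined cluster had 1001 bp. The narrowest replicate clusters there had 1301 to 1304 bp. Whether the lists were cut at these widths is not stated in the sources used here and was not tested. The highest of all, 2L:16141266-16142266, scored 2.97 (7.84-fold) over 1001 bp, and the second, 2L:9218020-9219020, scored 2.43 over 1001 bp. Next came 2L:10946903-10947944 at 2.06, 2L:20901816-20902837 at 1.61 and, in ranks below, 2L:6876673-6877678 at 1.29 and 2L:3654176-3655178 at 1.07. A seventh, 2L:4539314-4540908, scored 1.52 and was touched by replicate 2 alone, where the cluster scored 2.49, the highest single value of that replicate in the interval. Clusters narrower than 1302 bp made up 8 of the 50 highest-scoring members and 405 of the other 1633. Of the 50 highest-scoring members, 39 were touched by both replicates (78.0%, against 19.7% of the other 1633), 2 by 1 replicate and 9 by neither. The same share was not computed for the whole combined list, so it is not shown to be particular to 2L.

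**Figure D3:**
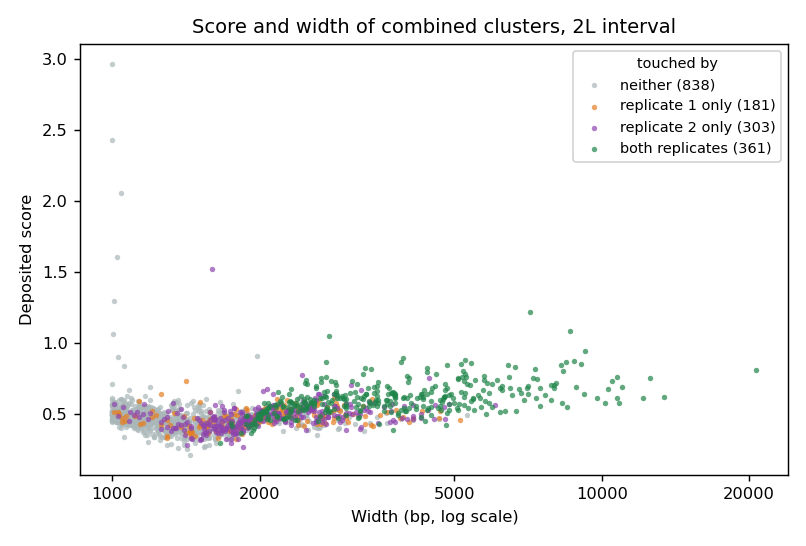
Deposited score (vertical axis) against width (horizontal axis, bp, log scale) of the 1683 combined clusters of the 2L interval, coloured by the replicates that touch them. Clusters touched by both (green, 361) lie to the right, from 1662 bp up, while the highest scores, up to 2.97, belong to clusters of about 1001 bp touched by neither (grey).

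Regions covered mostly by each replicate reached lower scores over longer stretches. Each replicate covered at least 50% of 273 members (16.2%, against 16.1% of the whole combined list). The top-scoring of these, 2L:5012438-5019557, had a score of 1.22 over 7120 bp; the replicates covered 88.02% and 95.9% of it, with scores of 1.30 and 1.27. The second, 2L:5030133-5038738, had a score of 1.09 over 8606 bp, with 1.23 and 1.22 in the replicates. The first and the second were close neighbours. The others of the top 10 included 2L:5171478-5174246 (score 1.05) and 2L:5166829-5170754 (score 0.89) and 2L:5158185-5166646 (score 0.87), so 5 of the 10 fell in 1 stretch from 5000001 to 5200000. The remaining 5 were 2L:6127157-6136412 (score 0.94, 9256 bp), 2L:4300193-4305445 (0.88), 2L:19510479-19519264 (0.87), 2L:1035141-1039035 (0.87) and 2L:7409908-7412637 (0.87).

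Of the 10 widest members with this support, 1 was wider than any replicate cluster in the interval. It ran at 2L:4493076-4513755 over 20680 bp with a score of 0.81, and the replicates covered 69.01% and 93.4% of it, in 6 pieces and 2 pieces. The next were 2L:5125687-5139110 (13424 bp, score 0.61), 2L:17501037-17513582 (12546 bp, 0.75), 2L:16328971-16341088 (12118 bp, 0.61) and 2L:4515121-4526123 (11003 bp, 0.69). The remaining 5 of the 10 measured from 9060 to 10507 bp. Replicate 1 split 5 of the 10 into more pieces than replicate 2 did, and replicate 2 split 1 into more. Their scores ran from 0.61 to 0.94, and 1 region, 2L:6127157-6136412, was in both sets.

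Coverage was then followed in 200 windows of 100 kb. The replicates ranked the windows alike, with Spearman's rho of 0.82 and Pearson's r of 0.84 over 200 windows, which share their 2 libraries and are given without a p-value. In replicate 1 the windows ran from 0% to 33.96% with a median of 4.89%, and in replicate 2 from 0% to 43.2% with a median of 6.36%. A window is called hot here when it was covered at 2 times the interval average or more in each replicate, and cold at 0.25 times or less in each. There were 17 hot windows (8.50%) and 24 cold ones (12.0%), and 0 windows were hot in 1 replicate and cold in the other. In the 17 hot windows lay 26.0% and 24.2% of the covered bases in replicates 1 and 2 (mean 25.1% ± 1.3, SD, n = 2). The 24 cold windows held 0.619% and 0.668%. In replicate 1 by itself 32 windows were hot and 44 cold, and in replicate 2 by itself 22 and 36. Of the 20 most covered windows of each replicate, 12 were the same.

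**Figure D4:**
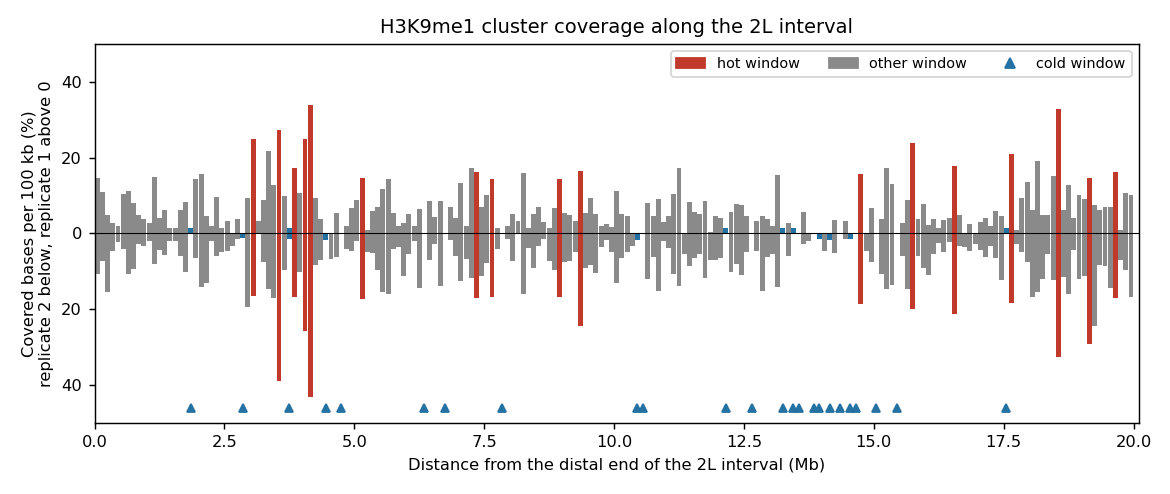
Bases inside clusters in each 100 kb window of the 2L interval (vertical axis, %, replicate 1 above 0 and replicate 2 below) against the distance from the distal end of the interval (horizontal axis, Mb). Hot windows are red and the 24 cold windows are marked by blue triangles. The tallest bars reach 33.96% in replicate 1 and 43.2% in replicate 2, and 13 of the 24 triangles fall in segment 3 of the 4 equal segments described in the text.

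Hot windows were chosen for their covered bases, so more clusters or wider ones in them follow from the choice, and the values describe only how the bases were made up. A hot window had 8.12 clusters on average in replicate 1 and 8.18 in replicate 2, against 3.00 and 3.62 in windows that were neither hot nor cold. Mean widths were 2482 bp and 2669 bp in hot windows against 2060 bp and 2144 bp. Median scores were 0.73 and 0.68 against 0.71 and 0.66, slightly higher in hot windows in each replicate. This difference was not tested. Between these 2 kinds of window density differed by 2.71 and 2.26 times, and mean width by 1.20 and 1.24 times. In cold windows the median scores were 0.64 over 6 clusters of replicate 1 and 0.69 over 7 of replicate 2. The score thus did not fall from hot to cold windows in replicate 2. Among combined clusters in hot windows, 85 of 218 (39.0%) were touched by both replicates, against 276 of 1388 (19.9%) in the windows that were neither. In cold windows 0 of 77 were. These shares follow in part from the choice of windows by the coverage of both replicates.

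The hottest place was 2L:5100001-5200000, covered at 33.96% in replicate 1 and 43.2% in replicate 2 (13 and 14 clusters). Its distal neighbour, 2L:5000001-5100000, was covered at 24.9% and 25.7%. Together they formed the 1 hot stretch of 2 windows, 200 kb in all; the other 15 hot windows stood alone. At a short distance on the distal side of this stretch lay 2L:4500001-4600000 (27.2% and 38.9%) and 2L:4800001-4900000 (17.3% and 16.9%). Between them was a cold window, 2L:4700001-4800000 (1.30% and 1.38%). The combined list placed 11 clusters in that window and covered 15.1% of it, the most of any cold window, against 18.9% of the interval. In the replicate lists, hot and cold windows thus alternated here within less than 1 Mb. On the proximal side the hottest window was 2L:19500001-19600000 (32.9% and 32.7%). The last of the top 5 was 2L:16700001-16800000 (23.8% and 19.95%).

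At the cutoff used, cold stretches were short as well. Of the 20 stretches, 16 were single windows and 4 were 200 kb long, at 2L:11400001-11600000, 2L:14400001-14600000, 2L:14800001-15000000 and 2L:15500001-15700000. Their lengths depend on the cutoff of 0.25. The window just distal to the third, 2L:14700001-14800000, was covered at 0% and 2.04%. It missed the cutoff at 0.253 times the average of replicate 2. Every window from 14200001 to 15700000 was covered below the interval average in each replicate. In 12 windows no base was covered in either replicate, yet 0 of the 200 windows lacked a combined cluster. The longest stretch without a cluster in either replicate was 2L:14402432-14602585, 200.2 kb long, and the combined list placed 9 clusters in it. The next 4 were 185.5 kb (from 15275137), 178.1 kb (from 14749650), 168.6 kb (from 16341049) and 159.1 kb (from 13549049). Stretches over 50 kb free of both replicates numbered 100 and made up 43.6% of the interval. Library depth was not analysed here, so an uncovered stretch is not shown to lack the mark.

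**Figure D5:**
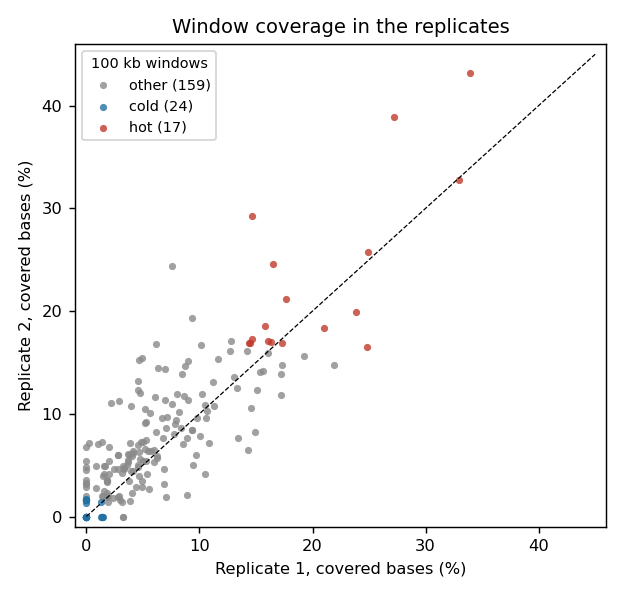
Covered bases of each of the 200 windows of 100 kb (%) in replicate 1 (horizontal axis) and replicate 2 (vertical axis), with hot (red, 17), cold (blue, 24) and other windows (grey, 159) and a dashed line of equal values. Windows follow the line (rho 0.82), with 127 of the 200 above it and 61 below.

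The replicates disagreed most, relative to their averages, at 2L:20200001-20300000, where 3 clusters of replicate 1 covered 7.55% and 12 clusters of replicate 2 covered 24.4%. Its distal neighbour, 2L:20100001-20200000, stood at 14.7% and 29.3%. The reverse was found at 2L:4000001-4100000 (24.8% and 16.5%), 2L:4300001-4400000 (21.9% and 14.7%) and 2L:2900001-3000000 (14.3% and 6.45%). All 5 windows held clusters in both replicates, so they differed in amount and not in presence.

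Along the arm the interval was divided into 4 equal segments of 5.00 Mb, numbered from the distal end. Coverage of segment 3, from 11005773 to 16008658, was 4.22% and 5.77% in replicates 1 and 2, a mean of 5.00% ± 1.10 (SD, n = 2). Segments 1, 2 and 4 stood at 8.37% ± 0.29, 7.11% ± 0.96 and 9.00% ± 1.66. Segment 3 was the lowest in each replicate and reached 0.61 ± 0.06 times the coverage of the other segments together (0.56 and 0.65). By their centres, 13 of the 24 cold windows lay in it and 1 of the 17 hot ones. It held fewer clusters (108 and 147, against 148 to 184 and 176 to 215), and narrower ones (medians of 1665.5 bp and 1661 bp, against 1849.5 to 1938 bp elsewhere). Median scores were 0.70 and 0.66 there, against 0.70 to 0.73 and 0.66 to 0.68 elsewhere. The Jaccard index of the replicates was also lowest there, at 0.328 against 0.382 to 0.429. With 2 samples an exact sign-flip permutation test cannot go below p = 0.5 (two-sided), so these differences are descriptions.

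Beside 3L and 3R, cut in the same way, 2L lay between these 2 arms in coverage. Coverage of their joined interiors was 6.79% in replicate 1 and 7.57% in replicate 2, and the ratio of 2L to them was 0.98 and 1.07 (mean 1.02 ± 0.06, SD, n = 2). It lay below 3L alone (0.92 ± 0.06) and above 3R alone (1.13 ± 0.05), on the same side in each replicate. Coverage of 2L was also below that of 2R (0.81 ± 0.05 times) and of X (0.444 ± 0.004 times), cut in the same way. Median widths were 1843 bp ± 15 on 2L, 1859 bp on 3L and 1838 bp on 3R, and median scores were 0.69, 0.69 and 0.68. Hot windows made up 8.50%, 6.98% and 7.23% of the windows of 2L, 3L and 3R, and cold ones 12.0%, 12.1% and 10.8%. Segment 3, counted from the distal side, was the least covered on all 3 arms, at 5.00% ± 1.10, 6.72% ± 0.34 and 5.50% ± 0.46. The lowest segment reached 0.555 times the highest on 2L, 0.732 times on 3L and 0.649 times on 3R. No test of these differences between arms was run, as the limit of 2 samples holds here too.

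The ends of the interval cut through no cluster. At the distal end the last combined cluster outside was 2L:984171-986403 (score 0.59) and the first inside 2L:1015269-1017671 (score 0.61). At the proximal end the last inside was 2L:21008791-21010258 (score 0.45) and the first beyond it 2L:21013914-21015731 (score 0.43). Genes in these regions were not analysed here, because no annotation on the release of the files was used.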

How the data were processed

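The submitters' processing notes name Bowtie 0.12.7. The authors deposited 3 lists of significantly enriched regions, each with a score per region: 1 for each ChIP replicate and 1 for the replicate set. Each input served as control of 1 ChIP list, per the labels. Caller, threshold and the way the replicates were combined: not given in the sources used here. The build is FlyBase release 5 per the file headers; positions are counted from 1. Input values and read depth were not analysed here, so no background, counting interval or detection floor is given.

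From these lists, widths, gaps, covered bases, overlaps (at least 1 bp) and windows of 100 kb were computed with Python 3.11.15, numpy 2.4.6 and pandas 2.3.3; the code was tested on simulated lists of 700 clusters with known answers. Windows under 50% of full length were left out. Interiors of 3L, 3R, 2R and X omit the terminal 1 Mb and the centromeric 2 Mb. Values are mean ± SD over the 2 ChIP samples, with no test across samples. Regions named are the 10 highest-scoring and 10 widest combined clusters covered over 50% by each replicate, the 10 highest-scoring of any support, the 5 extreme windows and stretches of each kind, and clusters at the ends. As 12 windows tied at 0%, the 5 coldest are not singled out. The members, rules and lists were chosen with earlier results of these data known. The 4 segments and the chains were added after the data had been seen.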

Additional observations from a re-analysis of the deposited data

How the results depend on the processing

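Over 13 results there were 65 alternative values. Of these, 22 moved by less than the spread between replicates (for counts, by at most 1.5 times) and 43 moved further. The count of reversals was 0, but a reversal could be called only for a difference, or for a ratio farther from 1 than its spread. The ratio of 2L to 3L and 3R, at 1.02, could not be called reversed, though some of its alternatives lay below 1. Of the 22, 12 leave 1 replicate out of a mean of 2, which moves it by less than 1 SD by construction and says nothing about stability; of the other 53, 10 stayed within these limits. For results other than counts where no replicate spread exists, any change counts as a move, with 1 exception. The share of combined clusters touched by both replicates was judged against a binomial confidence interval, which treats clusters as independent. The cause of these moves was not tested. Leaving out 1 replicate gave coverage of 6.66% to 8.08%, median widths of 1832.5 to 1854 bp, median scores of 0.67 to 0.71, median gaps of 11986 to 12708 bp, ratios to 3L and 3R of 0.98 to 1.07 and of segment 3 to the others of 0.56 to 0.65. By 1 replicate alone, 22 to 32 windows were hot and 36 to 44 cold: without replicate 1 the counts were 22 and 36, and without replicate 2 they were 32 and 44.

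With clusters at or above the median score of their list, coverage was 3.65%, median width 2425 bp, median gap 39388 bp, touching of the other replicate 49.2%, support by both 18.3%, window rho 0.68, cold windows 46 and segment 3 at 0.51 times the others. With clusters of at least the median width, coverage was 4.53%, median score 0.76 and support by both 23.8%. The combined list gave 18.9%, 1758 bp, 0.48, 4765 bp and 0.77 for coverage, width, score, gap and segment 3. All of 2L was covered at 8.55%. Joining clusters under 1000 bp apart raised the median gap to 15218 bp. Reciprocal overlap of 50% gave 48.4% touching and a score rho of 0.53; without the 2 pairs farthest from the median the rho was 0.44 and r 0.49. Coverage over 50% by each replicate was met by 16.2%. The score difference between clusters touched by both and by neither was 0.14, and 0.16 among those as wide as replicate clusters and 0.15 with 50% covered by each.

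Windows of 50 kb gave rho 0.75, 41 hot and 73 cold windows of 400. Windows of 200 kb gave 0.84, 4 and 5 of 100. Windows moved by 50 kb gave 0.80, 13 hot and 17 cold of 200, against 17 and 24 as reported. Clusters per window gave 0.74, 12 hot and 12 cold windows. Thresholds chosen after seeing the data gave 33 hot windows at 1.5 times and 5 at 2.5 times the average, and 48 cold windows at 0.5 times and 12 without a covered base. The ratio of 2L was 0.92 to 3L, 1.13 to 3R and 0.81 to 2R. In clusters per Mb segment 3 stood at 0.699. Alternatives for segment 3 were chosen after seeing the data. No value of touching exists without a replicate. No paired analysis was possible because values of the inputs were not analysed here.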

Other observations

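The longest void of a single list was in replicate 1, which had no cluster over 560.1 kb at 2L:14684125-15244257, within segment 3. Replicate 2 and the combined list did have clusters there, 15 in the latter. The longest void of replicate 2, 241.2 kb at 2L:14361418-14602585, lay just distal to it. In the combined list the longest void was 118.8 kb, at 2L:8810684-8929467.

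Correlations of coverage between windows were low at each distance computed. The correlation of neighbouring windows of 100 kb was 0.19 in replicate 1 and 0.23 in replicate 2. It was 0.12 and 0.07 at a distance of 200 kb, 0.08 and 0.06 at 300 kb, 0.18 and 0.23 at 500 kb, and 0.02 and -0.01 at 1 Mb. It thus did not run one way with distance; these are descriptions over the windows of the interval.

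A pair of the 3 highest-scoring clusters of replicate 2 lay side by side without a partner in replicate 1: 2L:4539396-4540763 (score 2.49, 1368 bp) and 2L:4536101-4538101 (score 1.25, 2001 bp), both inside the hot window that starts at 4500001. In replicate 1 the highest-scoring cluster without a partner was 2L:19619556-19620967 (score 1.19, 1412 bp). Of the 50 highest-scoring clusters, 43 in each replicate touched the other (86%), against 65.1% of the rest in replicate 1 and 52.5% in replicate 2. No such share was computed over the whole series.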
